A study of Mus musculus with 9 samples.

Results

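DNA replication and S-phase genes are the genes for the enzymes that license, fire and copy replication origins, for the supply of deoxynucleotides, for the cyclins of G1 and S phase, and for the factor that assembles nucleosomes on new DNA. A list of 51 such mouse genes was taken, and every listed gene that had a promoter window in the authors' deposited table was kept, at its window of highest accessibility. This gave 48 genes, each with a single window, among 10188 genes with a window. No window was assigned to Mcm10, Orc2 or Pold1, and no value is given for them.

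Origins are licensed in G1, when the origin recognition complex, Cdc6 and Cdt1 load the MCM helicase onto DNA. In S phase, cyclin-dependent kinases help to switch the helicase on through Cdc45 and the GINS complex, and DNA polymerases then copy both strands. Many of these genes are known targets of E2F transcription factors, which the Rb family holds back until cyclin D and cyclin E kinases act. Progenitor lines kept in a cytokine divide continuously and use this machinery in every cycle.

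Accessibility was measured by ATAC-seq, an assay in which Tn5 transposase inserts sequencing adapters into open chromatin. All came from HPC7, a mouse hematopoietic progenitor line kept in medium with stem cell factor (mSCF). The 3 Snai1 libraries carried a MIG retroviral vector for wildtype Snai1, FLAG-tagged per the series' design text, and the 3 EV libraries carried MIG without Snai1. A further 3 libraries carried MIG-mut5Snai1 and were not analysed here. Every group therefore shared the parental line, the medium and the retroviral backbone, and the Snai1 added to the Snai1 cells was encoded by a vector. Snai1, a repressor of the zinc finger type, is studied mostly in the epithelial to mesenchymal transition, where it binds E-boxes.

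Levels below are the authors' log2 concentrations of a promoter window, a measure of its normalized reads, given once for each group. There is no value per library behind them in the file, so neither a standard deviation nor an n belongs to them. A change is Snai1 minus EV on the log2 scale, and a gene rose or fell where the authors' FDR, a p-value adjusted over the whole table, was below 0.05. The SE printed beside a change was worked back from the change and its p-value. Nothing in the labels says whether each library had its own transduction or culture, and the p-values therefore rest on a spread that may be only technical. In cells assayed in bulk, a larger share of cells with an open promoter and a more open promoter in each cell cannot be told apart. Depth per library was not stated in the sources used here.

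Markers were read for the identity of the cells. Of 12 blood progenitor markers 11 had a window, among them Kit, which was not called, at 11.49 in Snai1 cells and 11.57 in EV cells. Of the 11, 4 rose (36.4%, all genes 19.6%) and 2 fell (18.2%, all genes 10.3%). Runx1 changed by -0.61 and Cd34 by -0.39, both in lowered stretches of chromosome described further on. Of those that rose, Tal1, Meis1 and Gata2 had the smallest FDR, with changes of 0.41, 0.26 and 0.25. The windows of Tal1 and Gata2 lie 1385 and 4773 bp inside the gene. Subtracting the median of the stretch or of the neighbouring windows, measures described further on, left 1 of the 11 higher, Tal1, and 0 lower. By contrast, 2 of 15 fibroblast markers and 1 of 12 T and B cell markers had one in the authors' deposited table. The window at the cells' own Snai1 gene was at 8.43 in Snai1 cells and 9.81 in EV cells, a change of -1.38 (FDR 4.17e-26). The vector's copy was not measured, and whether any of its reads were counted in that window was not checked.

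The sequences of 6 promoters are shown because they span the outcomes described below, with sequence words known from cell cycle and Snai1 biology. They are RefSeq promoter entries on GRCm38.p6, the same coordinates as mm10, from 250 bases before to 50 after a gene's start, written 5′ to 3′ on the gene's strand. Capitals mark E2F-type words (TTTCCCGC, TTTCGCGC, TTTGCCGC or TTTGGCGC) and the Snai1-type E-box CAGGTG, each read on either strand, where words on opposite strands may overlap. Mcm5 (chr8:75109259-75109558, plus strand) rose and holds 2 overlapping E2F-type words. Orc1 (chr4:108579204-108579503, plus strand) rose and holds 1. Mcm6 (chr1:128359656-128359955, minus strand) did not pass the test and holds 3. Prim1 (chr10:128014965-128015264, plus strand) and Tyms (chr5:30073576-30073875, minus strand) rose and hold an E-box each. Chaf1b (chr16:93883651-93883950, plus strand) fell and holds none of these words.
Mcm5: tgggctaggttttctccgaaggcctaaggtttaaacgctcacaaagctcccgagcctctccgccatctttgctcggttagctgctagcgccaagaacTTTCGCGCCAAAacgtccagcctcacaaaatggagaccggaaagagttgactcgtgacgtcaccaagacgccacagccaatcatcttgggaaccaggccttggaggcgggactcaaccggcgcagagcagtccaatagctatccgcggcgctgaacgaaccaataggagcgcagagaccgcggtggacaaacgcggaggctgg
Orc1: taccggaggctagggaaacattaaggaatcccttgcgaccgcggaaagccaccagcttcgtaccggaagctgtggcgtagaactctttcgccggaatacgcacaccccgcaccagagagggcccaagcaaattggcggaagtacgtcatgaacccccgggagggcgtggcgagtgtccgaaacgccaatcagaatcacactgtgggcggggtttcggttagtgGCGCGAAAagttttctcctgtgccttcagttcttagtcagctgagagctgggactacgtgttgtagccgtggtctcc
Mcm6: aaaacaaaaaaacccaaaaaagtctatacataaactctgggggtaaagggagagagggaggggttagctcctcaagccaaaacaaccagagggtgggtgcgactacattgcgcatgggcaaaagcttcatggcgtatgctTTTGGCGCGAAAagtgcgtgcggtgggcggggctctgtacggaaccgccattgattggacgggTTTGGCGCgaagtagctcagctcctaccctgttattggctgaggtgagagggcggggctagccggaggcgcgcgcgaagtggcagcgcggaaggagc
Prim1: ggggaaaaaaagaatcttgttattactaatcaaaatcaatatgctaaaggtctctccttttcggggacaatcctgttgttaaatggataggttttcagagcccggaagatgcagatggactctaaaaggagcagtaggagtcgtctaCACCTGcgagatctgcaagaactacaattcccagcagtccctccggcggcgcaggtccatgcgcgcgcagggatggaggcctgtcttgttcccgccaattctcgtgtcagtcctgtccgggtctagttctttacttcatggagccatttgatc
Tyms: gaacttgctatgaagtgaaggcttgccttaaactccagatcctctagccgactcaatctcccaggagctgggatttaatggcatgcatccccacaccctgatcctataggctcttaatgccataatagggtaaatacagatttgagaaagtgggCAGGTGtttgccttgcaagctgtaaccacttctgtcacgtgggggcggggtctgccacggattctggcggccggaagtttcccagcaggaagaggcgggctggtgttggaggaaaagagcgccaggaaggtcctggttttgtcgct
Chaf1b: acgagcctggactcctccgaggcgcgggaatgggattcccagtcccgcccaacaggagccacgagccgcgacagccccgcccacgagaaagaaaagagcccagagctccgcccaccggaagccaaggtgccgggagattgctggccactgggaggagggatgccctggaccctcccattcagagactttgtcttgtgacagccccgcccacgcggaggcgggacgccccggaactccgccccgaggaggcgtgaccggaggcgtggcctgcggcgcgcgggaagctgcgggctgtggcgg

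Of the 48 replication genes, 16 rose in Snai1 cells and 1 fell, which is 33.3% and 2.08% of them, while the background over all genes was 19.6% higher and 10.3% lower. The remaining 31 did not pass the test. Their median change was 0.16 log2 with quartiles of 0.0775 and 0.22, beside a median of 0.08 with quartiles of -0.05 and 0.18 over all genes. A positive change was listed for 39 of the 48 (81.25%), against 67.1% of all genes. The changes were small: the median of the 16 increases was 0.28, and only Ccne2 and Chaf1b moved by 0.5 or more in either direction (4.17% of the replication genes, 6.39% of all genes). No test of the list as a whole was made, since its genes were chosen with earlier results of these data known.

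**Figure D1:**
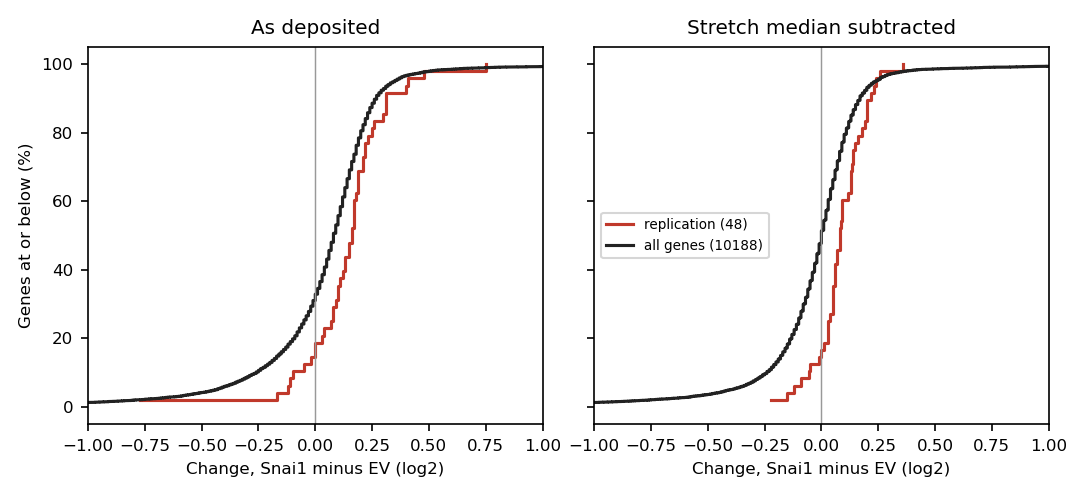
Cumulative share of genes (y axis, percent) against the change, Snai1 minus EV (x axis, log2 concentration), for the 48 replication genes and all 10188 genes with a window, as deposited (left) and with the stretch median subtracted (right). On the left the replication gene curve (median 0.16, all genes 0.08) lies to the right over most of the range, with Ccne2 at 0.75 and Chaf1b at -0.77 at its ends, and on the right its median is 0.08.

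These promoters were already open in control cells. Ranked among windows of the same width, the EV level of a replication gene lay at a median percentile of 68.5, with 36 of 48 above the middle and 17 in the upper quartile. Tk1, which makes thymidine monophosphate in S phase, was lowest at percentile 12.9, and Gins2, a GINS subunit, was highest at 98.5. The SE of a change ran from 0.0606 at Mcm6 to 0.137 at Tk1, with a median of 0.0773 for the replication genes and 0.0833 for all genes. Among genes above the median level, 13 of 37 replication genes rose (35.1%), against 20.6% of all 5095 such genes.

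**Figure D2:**
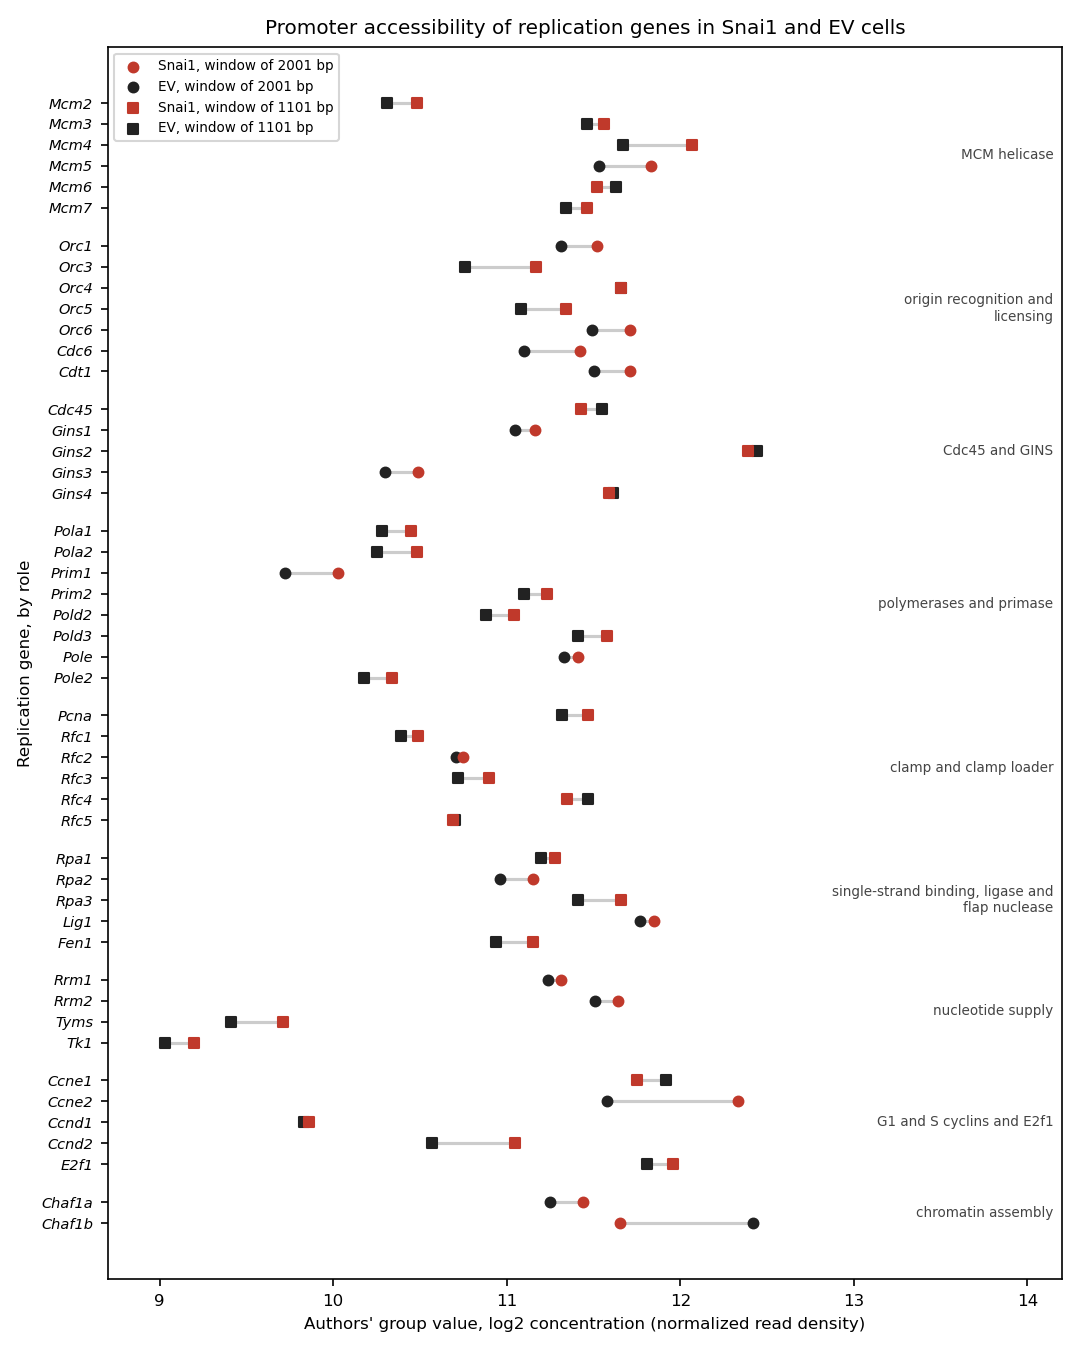
Level of each of the 48 replication promoters in Snai1 and in EV cells (x axis, log2 concentration, the authors' group values with no error bars), by role down the page. Most pairs lie within 0.3 of each other, and Ccne2 (12.33 in Snai1, 11.58 in EV) and Chaf1b (11.65 in Snai1, 12.42 in EV) stand widest apart.

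Of 7 licensing genes with a window 6 rose (85.7%, all genes 19.6%) and none fell, at the authors' FDR or at an unadjusted p below 0.05, with a median change of 0.22. Of these 6 calls, 2 were left when the median of all windows was subtracted, and 0 when that of the stretch or of the 40 nearest windows was, measures described further on. No test was made between roles. Orc3, a core subunit of the origin recognition complex, was at 11.17 in Snai1 cells and 10.76 in EV cells in the authors' deposited table (change 0.41, SE 0.07, FDR 1.11e-07). Cdc6, the loader that joins the complex in G1, was at 11.42 in Snai1 cells and 11.10 in EV cells (change 0.31, SE 0.08, FDR 0.00142). Orc5, another core subunit, was at 11.34 in Snai1 cells and 11.08 in EV cells (change 0.26, FDR 0.00531). The 3 increases that followed were of nearly one size. Orc1, the ATPase subunit that recruits Cdc6, was at 11.52 in Snai1 cells and 11.31 in EV cells (change 0.22, FDR 0.00363). Orc6 was at 11.71 in Snai1 cells and 11.49 in EV cells (change 0.22, FDR 0.0105). Cdt1, which brings the MCM ring to origins and is destroyed in S phase, was at 11.71 in Snai1 cells and 11.50 in EV cells (change 0.21, FDR 0.0276). Orc4, whose window lies 3635 bp inside the gene, was at 11.66 in both groups. The window of Orc1 lies 3749 bp inside the outermost gene boundary, at the start used for its RefSeq promoter entry.

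MCM helicase genes gave 2 increases among 6 (33.3%, all genes 19.6%), with a median change of 0.145. Mcm4 (window chr16:15637300-15638400) was at 12.07 in Snai1 cells and 11.67 in EV cells in the authors' deposited table (change 0.40, SE 0.08, FDR 7.45e-06). Mcm5 (window chr8:75108509-75110509) was at 11.83 in Snai1 cells and 11.53 in EV cells (change 0.31, SE 0.06, FDR 2.49e-05). The 6 proteins act as a single ring in equal amounts, but the promoters did not share one value. Mcm2, Mcm7 and Mcm3 were listed at changes of 0.17, 0.12 and 0.10 and did not pass the test. Mcm6 was at 11.52 in Snai1 cells and 11.63 in EV cells (change -0.10, 95% interval -0.22 to 0.02, FDR 0.202). Mcm4 and Mcm6 lie in stretches of chromosome, described further on, with median changes of 0.32 and -0.24. With the stretch median subtracted, Mcm4 was at 0.08 and Mcm6 at 0.14, and the 6 ran from 0.03 at Mcm3 to 0.18 at Mcm5.

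Cdc45 and the GINS genes, which complete the active helicase, had the lowest median of the larger roles, -0.02 over 5 genes. Gins3 alone rose (20% of the 5, all genes 19.6%), with 10.49 in Snai1 cells and 10.30 in EV cells (change 0.19, FDR 0.0349). Gins1 was listed at a change of 0.11, Gins4 at -0.02 and Gins2 at -0.05, and none of these passed. Cdc45 was at 11.43 in Snai1 cells and 11.55 in EV cells (change -0.11, 95% interval -0.23 to 0.01, FDR 0.159).

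All 8 polymerase and primase genes had a positive change, between 0.08 and 0.31, where 67.1% of all genes had one. Of the 8, 1 passed the test (12.5%), beside 19.6% of all genes that rose. With the median of all windows subtracted, the median of the 8 was 0.085. Prim1, the catalytic primase subunit that lays down RNA primers, was at 10.03 in Snai1 cells and 9.72 in EV cells in the authors' deposited table (change 0.31, SE 0.09, FDR 0.0028). Its partner Prim2 was at a change of 0.13. Pola2 (0.23, FDR 0.0649), Pold3 (0.17, FDR 0.0711) and Pold2 (0.16, FDR 0.0933), subunits of polymerases alpha and delta, lay just outside the threshold. Pola1, the catalytic subunit of polymerase alpha, was at 0.17, and the polymerase epsilon genes Pole2 and Pole were at 0.16 and 0.08.

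No gene of the sliding clamp and its loader passed, among 6, by the authors' FDR from DiffBind, where 19.6% of all genes rose and 10.3% fell. Of the 6, 1 (Rfc3) had an unadjusted p below 0.05, and their median change was 0.07. Pcna, the clamp that holds polymerases on DNA, was at 11.47 in Snai1 cells and 11.32 in EV cells (change 0.15, FDR 0.126). Of the loader subunits, Rfc3 was at a change of 0.18 (FDR 0.0555), Rfc1 at 0.10 in a window 2978 bp inside the gene, Rfc2 at 0.04 and Rfc5 at 0.00. Rfc4 was at 11.35 in Snai1 cells and 11.47 in EV cells in the authors' deposited table (change -0.12, 95% interval -0.25 to 0.01, FDR 0.143).

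Among the genes for single-strand binding and strand joining, 2 of 5 rose (40%, all genes 19.6%). Of these calls, 0 were left when the median of all windows, of the stretch or of the 40 nearest windows was subtracted. Rpa3, the smallest subunit of the single-strand binding complex, was at 11.66 in Snai1 cells and 11.41 in EV cells (change 0.25, FDR 0.0224). Fen1, the nuclease that removes the flaps of Okazaki fragments, was at 11.15 in Snai1 cells and 10.94 in EV cells (change 0.21, FDR 0.0141). Changes of 0.19 at Rpa2, 0.09 at Lig1, the ligase gene, whose window lies 2090 bp inside the gene, and 0.08 at Rpa1 did not pass.

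Nucleotide supply gave 1 increase among 4 genes (25%, all genes 19.6%). Tyms, thymidylate synthase, was at 9.71 in Snai1 cells and 9.41 in EV cells in the authors' deposited table (change 0.30, SE 0.11, FDR 0.0302), and was 1 of 3 genes, with Tk1 and Prim1, in the lowest quartile of EV levels for their window width. Tk1 was at 9.20 in Snai1 cells and 9.03 in EV cells (change 0.17, SE 0.14, FDR 0.355), with the widest interval of the 48. The ribonucleotide reductase genes Rrm2 and Rrm1 were at changes of 0.13 and 0.07.

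The cyclin genes differed among themselves. Ccne2, cyclin E2, had the largest increase of the 48, with 12.33 in Snai1 cells and 11.58 in EV cells in the authors' deposited table, 1.68-fold on the linear scale (change 0.75, SE 0.07, 95% interval 0.61 to 0.89, FDR 3.02e-22). Its window (chr4:11190351-11192351) is centred on a start 918 bp inside the gene's 5′ boundary. Among the 5095 genes above the median level, only 1 other gene reached the same change and none exceeded it. Among all 10188 genes with a window, its change ranked 104 from the top. Ccnd2, cyclin D2, was at 11.05 in Snai1 cells and 10.57 in EV cells, from a window 1140 bp inside the gene (change 0.48, SE 0.10, FDR 4.49e-05). Windows set this far inside a gene, as at Ccne2, Ccnd2, Orc1, Orc4, Rfc1 and Lig1, may belong to another promoter than the outermost one. At Orc1, Orc4, Rfc1 and Lig1 the window's start is the start used for the gene's RefSeq promoter entry. Ccne2 and Ccnd2 had no such entry. Ccne1, cyclin E1, which acts with the same kinase as cyclin E2, was at 11.75 in Snai1 cells and 11.92 in EV cells (change -0.17, 95% interval -0.36 to 0.02, FDR 0.179). Ccnd1 was at a change of 0.03, and E2f1, the transcription factor gene, at 0.15 (FDR 0.11).

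By the authors' FDR, the 2 nucleosome assembly genes moved in opposite directions. Of the 2, 50% rose and 50% fell, beside 19.6% and 10.3% of all genes. Chaf1a and Chaf1b encode subunits of CAF-1, which delivers histones H3 and H4 behind the fork. Chaf1a was at 11.44 in Snai1 cells and 11.25 in EV cells (change 0.19, FDR 0.0143). Chaf1b (window chr16:93882901-93884901) was at 11.65 in Snai1 cells and 12.42 in EV cells in the authors' deposited table, 1.71-fold lower on the linear scale (change -0.77, SE 0.07, 95% interval -0.91 to -0.63, FDR 7e-25). Ranked among windows of its width, the Chaf1b promoter stood at percentile 76.8 in Snai1 cells and 96.0 in EV cells. Chaf1a was not called when the median of all windows, of the stretch or of the 40 nearest windows was subtracted. Chaf1b kept its call under the first of these measures only.

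Position on the chromosome moved with several of these values. Changes along the chromosomes fell into 51 stretches, and 891 windows (8.67%) lay in stretches whose median stood at least 0.2 from the 0.08 of all windows, called shifted here. These held 8 of the 48 replication genes, among them the largest increase and the only decrease. Ccne2 lies on chromosome 4 in a stretch from 3.6 to 24.5 Mb, where 47 windows had a median change of 0.55 and 46 of them stood above the median of all windows. Chaf1b lies on chromosome 16 in a stretch from 92.1 to 98.1 Mb, where 26 windows had a median of -0.715 and all 26 stood below it. Mcm4 lies on chromosome 16 between 3.7 and 16.4 Mb (67 windows, median 0.32), and Orc3 on chromosome 4 between 24.9 and 35.2 Mb (15 windows, median 0.34). The other 4 lie in lowered stretches: Mcm6 on distal chromosome 1 (345 windows, median -0.24), Cdc45 (43 windows, median -0.24) and Rfc4 (108 windows, median -0.38) on chromosome 16, and Rfc5 on chromosome 5 (24 windows, median -0.20). All 3 uncalled genes with a change at or below -0.10 other than Ccne1 were thus in lowered stretches. The part of chromosomal position in these changes was not tested.

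**Figure D3:**
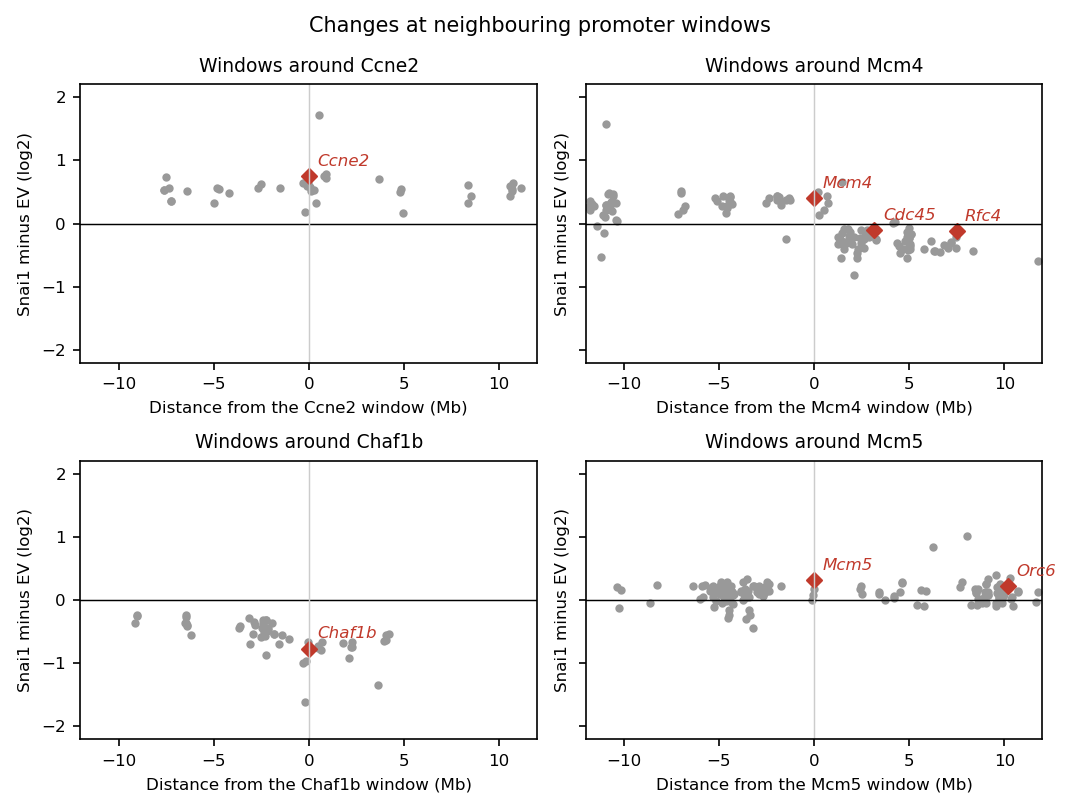
Change (y axis, log2 concentration, Snai1 minus EV) at windows within 12 Mb of Ccne2, Mcm4, Chaf1b and Mcm5 against distance from the named gene's window (x axis, Mb), for windows with a log2 concentration of at least 9. Ccne2 and Chaf1b lie in stretches with medians of 0.55 and -0.715, the sign turns between Mcm4 (stretch median 0.32) and Cdc45 and Rfc4 (-0.24 and -0.38), and Mcm5 at 0.31 stands in a stretch with a median of 0.13.

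Other genes stood out once the median of the stretch was subtracted. Chaf1b differed from its stretch by -0.055 (SE 0.07, adjusted p 0.708), Mcm4 by 0.08 (adjusted p 0.598) and Orc3 by 0.07 (adjusted p 0.601), with the change divided by its SE and Benjamini-Hochberg adjustment over all windows. Above their stretch by this measure were Ccnd2 by 0.36 (adjusted p 0.00651), Rfc4 by 0.26 (adjusted p 0.00095), Prim1 by 0.24 (adjusted p 0.0485) and Mcm5 by 0.18 (adjusted p 0.0452), 8.33% of the 48 against a background of 4.75%. None of the 48 was below its stretch (2 at an unadjusted p below 0.05), against 7.76% of all genes. Ccne2 exceeded its stretch by 0.20 (adjusted p 0.0531). Against the median of its 40 nearest windows, 20 on each side, Ccne2 was higher by 0.205 (adjusted p 0.0433), Ccnd2 by 0.35 (adjusted p 0.00856) and Rfc4 by 0.29 (adjusted p 0.000138), which is 6.25% of the 48 beside 5.15% of all genes, and none was lower (1 at an unadjusted p below 0.05), beside 8.36%. Ccnd2 passed under each of these measures, with a local median of 0.13. In all, 37 of the 48 lay above their local median (77.1%), against 49.1% of all genes.

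**Figure D4:**
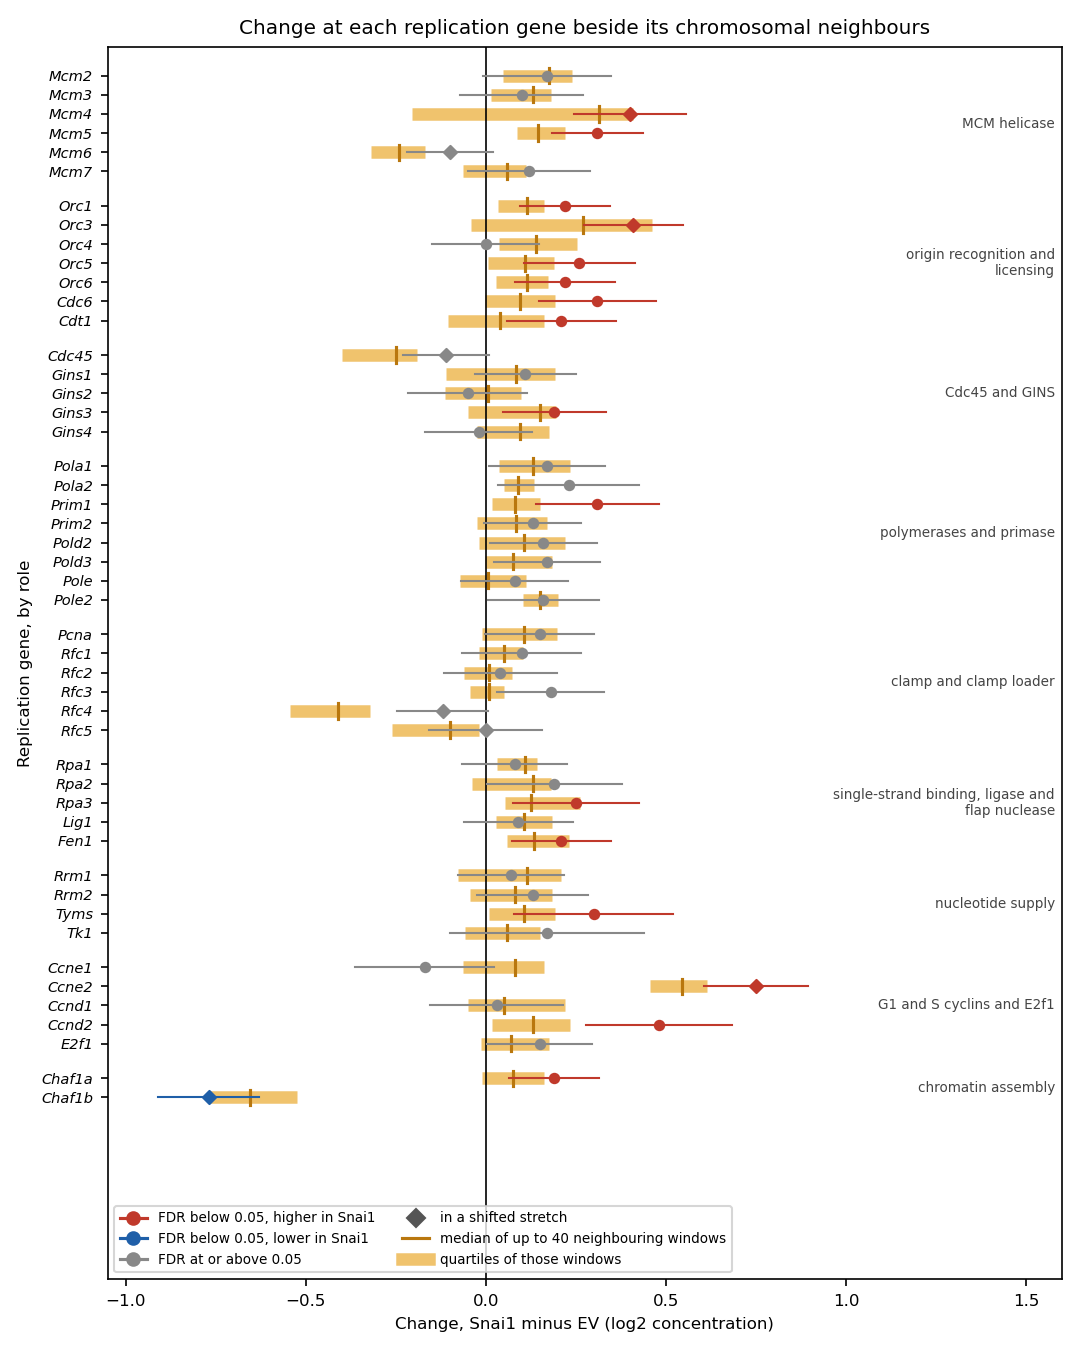
Change at each of the 48 replication genes (x axis, log2 concentration, Snai1 minus EV; points with 95% intervals from the implied SE) beside the median and quartiles of up to 40 neighbouring windows (orange), by role down the page. Mcm4 (0.40), Orc3 (0.41) and Chaf1b (-0.77) did not pass against local medians of 0.315, 0.27 and -0.655, while Ccne2 (0.75, local median 0.545), Ccnd2 (0.48, 0.13) and Rfc4 (-0.12, -0.41) lay above theirs.

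Outside shifted stretches 13 of 40 replication genes rose (32.5%) and 0 fell by the authors' FDR (0 also at an unadjusted p below 0.05), against backgrounds of 20.2% and 5.55%, and the median change was 0.165 against 0.09. At a stricter FDR of 0.01, 9 of the 48 rose and 1 fell, with backgrounds of 11.2% and 7.74%. The window design also went with the count of calls. Genes on the plus strand have windows of 2001 bp, reaching 1000 bp past the start, and 9 of 17 replication genes with such a window rose, where the background was 21.7%. Genes on the minus strand have windows of 1101 bp, reaching 100 bp past the start, and 7 of 31 rose, where the background was 17.4%. The part of window width in the calls was not tested. When the median of all windows was subtracted, 7 of the 48 rose and 4 fell, beside 7.25% and 13.8% of all genes. The 4 were Mcm6, Cdc45, Rfc4 and Chaf1b, all in lowered stretches.

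Many replication genes share a promoter region with a gene on the opposite strand. Such a window, starting within 1000 bp, was present for 12 of the 48 (25%), against 16.4% of all genes. Among these pairs, 6 had both windows called higher, and in none was only one called. The like counts over all genes with such a window were not made, so these are not read as a trait of replication genes. The windows of a pair overlap and share reads, so they are not separate measurements, and no pair differed by more than 0.07. Over all genes with such a window, the median absolute difference within pairs was 0.02. Orc3 and Rars2, an arginyl-tRNA synthetase gene, both changed by 0.41 with starts 16 bp apart. Mcm4 at 0.40 faces Prkdc at 0.42, the gene for the DNA-dependent protein kinase. Orc1 and Prpf38a both changed by 0.22, Rpa3 and Umad1 both by 0.25, Orc6 by 0.22 and Vps35 by 0.20, and Orc5 by 0.26 and the non-coding 6030443J06Rik by 0.33. Of the 6 licensing genes that rose, 4 thus have such a partner, and an increase there cannot be assigned to either gene alone.

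Promoter sequence entries were found for 38 of the 48 genes. Those without an entry were Mcm4, Gins1, Gins2, Gins4, Prim2, Pole, Rfc2, Ccne2, Ccnd1 and Ccnd2. An E2F-type word was present in 13 of the 38 (34.2%), against 4.66% of 8255 genes with a window and an entry and 2.26% of all 32851 promoters. By outcome, the word was in 6 of the 13 genes with an entry that rose (46.2%) and in 7 of the 24 that did not pass (29.2%). Over all genes with a window and an entry, it was in 5.69% of the 1598 that rose, beside 4.66% of the 8255. No test was made between outcomes. Among licensing genes it was present in Orc1, Orc3, Cdc6 and Cdt1. Mcm6, with 3 words, the highest number among the 38, was among those that did not pass. The E-box CAGGTG was in 5 of the 38 (13.2%), against 16.0% of genes with a window and 20.2% of all promoters. Those 5 were Prim1, Tyms and Orc6, which rose, and Pold3 and Rfc1, which did not pass. The CCAAT word, which NF-Y is known to bind, was in 21 of the 38 (55.3%), against 39.3% of genes with a window and 37.4% of all promoters. A match is a description of letters in a window of 300 bases and not a binding site. Median GC content was 63.2% in the 38, 61.3% in genes with a window and 52.7% in all promoters. The median number of CpG dinucleotides was 24.5, 22 and 7 in turn. The part of base composition in the word shares was not tested, and only 79.2% of the genes had a sequence.

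Other genes of the cell cycle were read from lists of the same kind. Of 33 further origin firing and replisome genes with a window, 8 rose (24.2%) and 3 fell (9.09%), near the 19.6% and 10.3% of all genes, with a median change of 0.15. With the median of all windows subtracted 4 were higher and 3 lower, with that of the stretch 4 and 0, and with that of the 40 nearest windows 3 and 1. The 5 with the smallest FDR were Pole3, a polymerase epsilon subunit, at 11.14 in Snai1 cells and 11.71 in EV cells (change -0.57, FDR 5.54e-11), Donson, a replisome factor, at a change of -0.49, Rnaseh2b, a ribonuclease H2 subunit, at 0.46, Dscc1, part of an alternative clamp loader, at 0.35, and Pclaf, a Pcna partner, at 0.35. Pole3, Donson and the third decrease, Dtl (-0.28), all lie in shifted stretches, with stretch medians of -0.35, -0.39 and -0.24. None of these 3 passed against its stretch, but Pole3 was still called lower against its 40 nearest windows, by -0.32. Dtl was named after its value was seen. Of 17 further nucleotide supply genes, 0 rose by the authors' FDR (0 also at an unadjusted p below 0.05), beside 19.6% of all genes. The 1 that fell (5.88%, all genes 10.3%) was Gart, a purine synthesis enzyme (-0.32, in a stretch with a median of -0.39). Its direction turned against its 40 nearest windows, where it was called higher by 0.22. The list's median was 0.07. With the median of all windows subtracted 0 were higher and 1 lower, and with that of the stretch or of the neighbours 1 was higher and 0 lower.

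The kinase and Rb axis upstream of S phase gave 6 increases (27.3%) and 1 decrease (4.55%) among 22 genes, beside 19.6% and 10.3% of all genes, with a median of 0.11. With the median of all windows subtracted 2 were higher and 2 lower, and with that of the stretch or of the neighbours 2 were higher and 0 lower, with a median of 0.005 under either. Myc was at 11.66 in Snai1 cells and 11.29 in EV cells in the authors' deposited table (change 0.37, FDR 1.4e-06), and Ccnd3, cyclin D3, at 11.19 in Snai1 cells and 10.78 in EV cells (change 0.41, FDR 0.000299). Wee1, a kinase that restrains Cdk activity, and E2f8, a repressing E2F, each changed by 0.22. The 1 decrease was Lin9 (-0.26), in a stretch with a median of -0.24. Among 4 CDK inhibitor genes with a window, Cdkn1a, the p53 target that encodes p21, was at 8.72 in Snai1 cells and 9.76 in EV cells (change -1.04, SE 0.30, FDR 0.00413), against a local median of 0.13. Cdkn1b and Cdkn2c rose by the authors' FDR, by 0.22 and 0.23, so 50% of the 4 rose and 25% fell, beside 19.6% and 10.3% of all genes. With the median of all windows, of the stretch or of the neighbours subtracted, 0 were higher and 1 lower. Only Cdkn1a kept its call under these measures.

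Histone supply and chromatin maintenance gave 5 increases among 11 genes (45.5%, all genes 19.6%) and 0 decreases by the authors' FDR or at an unadjusted p below 0.05 (all genes 10.3% by FDR), with a median of 0.08. Subtracting the median of all windows, of the stretch and of the neighbours left 3, 2 and 1 higher in turn, with list medians of 0.00, 0.01 and 0.05. Hells, a remodeller of the Snf2 family, was at 10.63 in Snai1 cells and 10.26 in EV cells (change 0.37, FDR 5.57e-06), and the histone chaperone Nasp was at 11.06 in Snai1 cells and 10.77 in EV cells (change 0.30, FDR 0.000305). Hat1, which acetylates new histones, Npat, which drives histone gene transcription, and Uhrf1, which brings DNA methylation to new DNA, changed by 0.28, 0.25 and 0.24. Of 8 checkpoint genes 1 rose (12.5%, all genes 19.6%), Rad1, part of the 9-1-1 clamp (0.21), and their median was 0.145. Mitosis genes, which act after S phase, gave 11 increases (42.3%) and 1 decrease (3.85%) among 26, where all genes gave 19.6% and 10.3%, with a median of 0.19. Subtracting the median of all windows gave 3 higher and 2 lower, that of the stretch 2 higher and 0 lower, and that of the neighbours 1 higher and 0 lower. Kif11, a spindle motor, changed by 0.32, the phosphatase genes Cdc25b and Cdc25c by 0.32 and 0.23, the spindle checkpoint kinase gene Ttk by 0.29 and Incenp by 0.24. No test was made of whether the replication genes differ from the mitosis genes, and the medians of 0.16 and 0.19 stand side by side as a description.

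**Figure D5:**
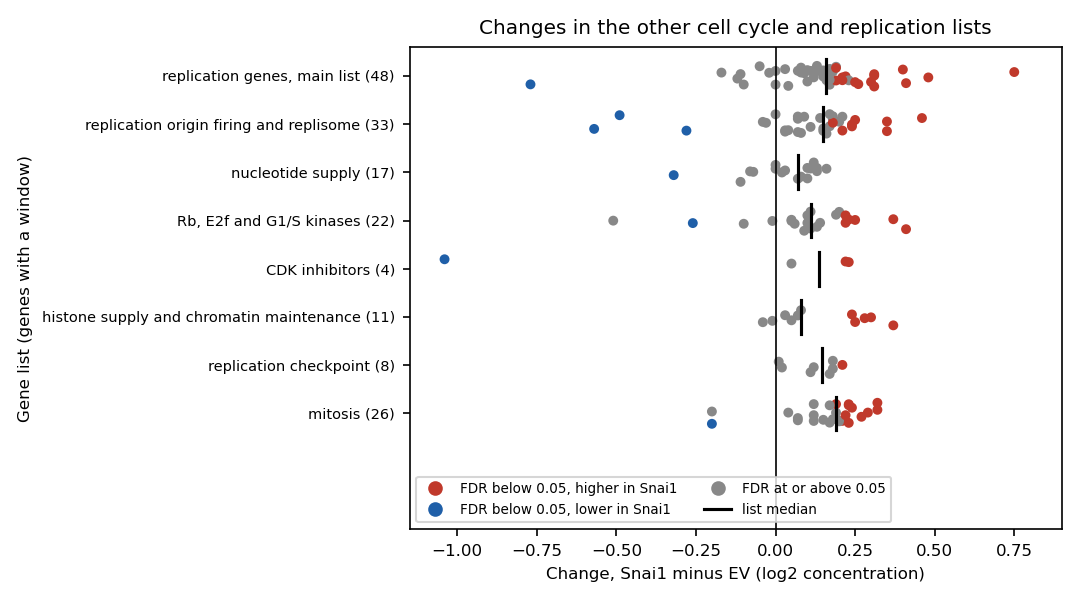
Change (x axis, log2 concentration, Snai1 minus EV) of each gene with a window in the replication list and in 7 other cell cycle lists (rows, with the number of genes), coloured by call, with list medians as bars. Medians lie between 0.07 and 0.19, and the decreases called among replication genes (Chaf1b, Pole3, Donson, Dtl) all lie in shifted stretches, while Cdkn1a does not.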

How the data were processed

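ATAC-seq libraries of HPC7 cells were compared, 3 with Snai1 and 3 with EV. The submitters' processing notes name the tools fastp, Bowtie2, Picard and DiffBind and the build mm10. Their versions and settings, the counting and scaling of reads, any Tn5 offset and the depth of each library are not given in the sources used. Per the file headers, the authors' deposited table held, for promoter windows, a log2 concentration for each group and for both together, a log2 fold, a p-value and an FDR. It held 0 columns of values per sample, so no model across libraries was fitted.

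The authors' log2 fold matched EV minus Snai1 within 0.01, and its sign was turned. Adjusting the authors' p-value by Benjamini-Hochberg gave their FDR within 0.00134. Of 10274 windows, 3 were exact repeats and were dropped.

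Windows were given a start position at 1000 bp into those of 2001 bp and 100 bp into those of 1101 bp from the lower coordinate. Each took the RefSeq gene (GRCm38.p6) with a 5′ boundary within 1000 bp on that strand (8957 windows), or else the gene spanning it (1276), and 38 were left without a gene. Strand was known for 27025 of 49997 genes, and the others were accepted on either strand. The window with the highest concentration stood for a gene.

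The implied SE was the change over the normal deviate that its p gives, or the median of 1 of 20 accessibility bins where the change was under 0.1. Intervals are 1.96 SE. Stretches came from an optimal partition of changes along each chromosome (concentration of at least 9, at least 15 windows, changes limited to 0.75 from the centre, penalty 4 × variance × log of the chromosome's window number). Scripts were tested on simulated data. Python 3.11.15, pandas 2.3.3, numpy 2.4.6, scipy 1.17.1 and matplotlib 3.10.9 were used.

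Every listed gene with a window is named. Of the other lists, up to 5 called genes by smallest FDR are named, with Snai1 and Cdkn1a. The members, lists and centred measures were chosen with earlier results of these data known, so no test over a list was made. Alternatives were centring on 3 medians, FDR 0.01, other rules for the window of a gene, a minimum concentration of 9 and leaving out shifted stretches. The mut5Snai1 libraries were not analysed here.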

Additional observations from a re-analysis of the deposited data

How the results depend on the processing

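With the deposited FDR below 0.05, 16 replication genes rose and 1 fell, with a median change of 0.16. Subtracting the median of all windows gave 7 higher, 4 lower and a median of 0.08. Subtracting the stretch median gave 4 higher, 0 lower and a median of 0.08, and the 40 nearest windows gave 3 higher, 0 lower and a median of 0.075. FDR 0.01 gave 9 higher. Without shifted stretches, an alternative chosen after seeing the data, 0 fell. Rfc4 changed sign and was called higher, with 0.26 against its stretch and 0.29 against its neighbours, where the deposited change was -0.12. Other genes turned without a call. Against their stretch, Mcm6 went from -0.10 to 0.14 and Cdc45 from -0.11 to 0.13. In the other direction, examples were Ccnd1, from 0.03 to -0.09, and Rrm1, from 0.07 to -0.05. The cause of these turns was not tested. Of the 17 calls, 8, 3, 2 and 10 were kept in turn under those first 4 settings. A minimum concentration of 9, the window nearest the 5′ end and the window with the smallest p kept all 17. Windows within 1000 bp of a 5′ end gave 14 higher and 1 lower among 43 genes. No paired analysis was possible because the file holds no value per library, so no replicate was left out either. Depth is unknown.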
